A study of Mus musculus with 24 samples.

Results

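Wnt5a and 9 genes that carry, receive or temper its signal were followed through 8 lines of mouse astrocytes that had lost p53 or carried a mutant p53. The set held the ligands Wnt5a and Wnt5b, the receptors Ror1, Ror2 and Ryk, the frizzled receptors Fzd1, Fzd2 and Fzd7, and the secreted modulators Sfrp1 and Dkk3, and all 10 were among the 14427 genes of the deposited count table. They were chosen on the p53 R172H lines, in which Wnt5a stood below p53 KO in males and above it in females, and were then read in every line. Wnt5a was lowest in male p53 R172H, at 17.1 ± 0.912 CPM (the count of a gene scaled to a fixed library total and TMM-normalized, as mean ± SD over the 3 libraries of a line here and below), and highest in female p53 R172H, at 94.8 ± 6.99. Outside the p53 R172H lines, Ror2 fell 3.56-fold in male p53 Y202C and 2.92-fold in male p53 Y217C, Dkk3 fell 11.1-fold in male p53 Y217C, and Fzd1 and Sfrp1 rose 5.30-fold and 4.83-fold in female p53 Y202C.

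RNA-seq was performed on male and female lines of 4 kinds, named p53 KO and, for the 3 mutations, p53 Y202C, p53 Y217C and p53 R172H, with 3 libraries each and 24 in all. All came from cortical astrocytes of postnatal day 1 pups on a C57BL/6 background that held 1 floxed and 1 deleted Trp53 allele, with the cells of several pups of a sex pooled into 1 male culture (m1) and 1 female culture (f1). Mutant lines were infected with a retrovirus that overexpressed the mutant Trp53 with eGFP and were sorted for eGFP, and every line, p53 KO included, then received a lentivirus for Cre and a puromycin resistance gene and was selected in puromycin. Cells were grown in DMEM/F12 with 10% FBS and used at passages 10 to 15. Each line is thus 1 transduced population from 1 culture, so that the effect of a mutation or of sex cannot be told apart from the history of that line, and the 3 libraries, from separate thaws and platings, measure the spread within it.

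Wnt proteins are secreted lipid-modified ligands that bind frizzled receptors. In the canonical branch a frizzled and an LRP co-receptor stabilize beta-catenin, which acts with TCF/LEF factors on target genes. Wnt5a is the best known ligand of the non-canonical branch, in which ROR1, ROR2 and RYK, with frizzleds such as FZD2 and FZD7, pass signals to planar cell polarity and calcium pathways that govern cell shape and movement. Sfrp1 encodes a decoy that binds Wnt ligands outside the cell, and Dkk3 encodes a secreted protein of the Dickkopf family. In the brain Wnt5a is known for axon guidance and neuronal differentiation, and in glioma for invasion.

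Library totals ran from 52787288 to 136503809 counts, with a median of 80684345. Trp53 itself stood at 46.5 to 53.7 CPM in the 6 p53 KO libraries and at 572 to 3870 CPM in the 18 libraries of mutant lines. The mean was 2324 CPM in male and 593 in female p53 Y202C, 1215 and 3709 in p53 Y217C, and 2287 and 1956 in p53 R172H, so that mutant lines differed in the amount of transgene as well as in the mutation. Gene counts do not separate the floxed exons, so they do not check the deletion. Of the 10 astrocyte markers in the table, Vim, Gja1 and Sox9 were expressed in every line, whereas Gfap, the defining filament of mature astrocytes, stayed below 1 CPM in 7 lines and reached 6.93 ± 1.75 CPM in male p53 Y217C. In both p53 KO lines, male p53 R172H and female p53 Y217C 5 of the 10 had a mean below 1 CPM, namely Gfap, Aqp4, Slc1a2, Aldh1l1 and S100b, and in male p53 Y217C none did. Genes of fibroblasts and meninges were abundant in the same lines: Col1a1 had a mean between 3361 CPM in male p53 Y202C and 21776 CPM in female p53 R172H. Lists for other cell types summed to far less, with line means of 62.9 to 327 CPM for 3 oligodendrocyte lineage genes, 17.5 to 108 for 2 microglia genes, 81.2 to 154 for 4 neuron genes and 7.27 to 45.3 for 3 endothelial genes.

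Wnt5a, on chromosome 14 (GRCm38, 28504750 to 28527448, plus strand), was read with between 1262 and 11663 counts in every library. Among males its level was 36.7, 32.5 and 34.9 CPM in replicates 1 to 3 of p53 KO, 27.8, 26.6 and 26.6 in p53 Y202C, 42.8, 44.9 and 39.2 in p53 Y217C, and 18.0, 16.2 and 17.2 in p53 R172H. Among females it was 28.3, 28.6 and 26.5 CPM in p53 KO, 56.4, 56.8 and 59.3 in p53 Y202C, 18.8, 21.1 and 21.5 in p53 Y217C, and 103, 92.9 and 88.9 in p53 R172H. Ordered by mean, the lines ran from female p53 R172H through female p53 Y202C, male p53 Y217C, male p53 KO, female p53 KO, male p53 Y202C and female p53 Y217C down to male p53 R172H. Libraries of neighboring lines in that order overlapped for only 1 of the 7 pairs, female p53 KO and male p53 Y202C. The highest mean was 5.54 times the lowest. These genes were chosen by the p53 R172H values, which are therefore given as a description: against p53 KO of the same sex the log2 fold change was -1.02 ± 0.07 (± SE here and below for log2 fold changes) in males and 1.77 ± 0.07 in females. In a bulk sample, fewer cells that express a gene and less RNA per cell cannot be told apart.

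**Figure D1:**
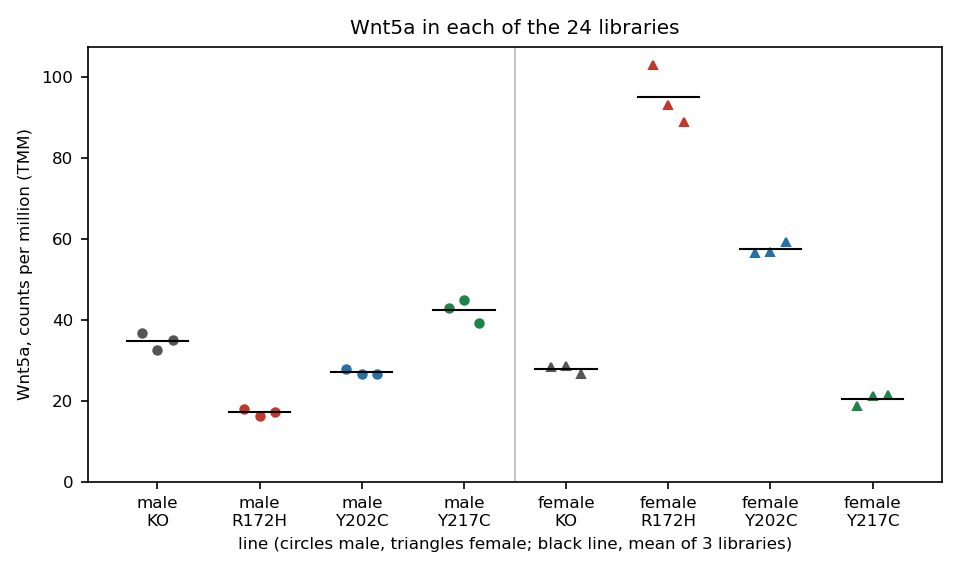
Wnt5a in CPM (vertical axis, from 0) in each library of the 8 lines (horizontal axis), with circles for male and triangles for female libraries and a black line at the mean of 3. The 3 female p53 R172H libraries lie between 88.9 and 103 CPM, above all others, and the male p53 R172H libraries between 16.2 and 18.0 CPM, below all others.

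In the other mutant lines Wnt5a also moved in opposite directions in the male and the female line. It fell in male p53 Y202C (log2 fold change -0.36 ± 0.07, adjusted p = 3.16e-05, edgeR quasi-likelihood test with Benjamini-Hochberg adjustment over all genes, used for every adjusted p) and rose in female p53 Y202C (1.05 ± 0.07, adjusted p = 1.55e-12). For p53 Y217C the directions were exchanged: Wnt5a rose in males (0.29 ± 0.07, adjusted p = 0.000447) and fell in females (-0.44 ± 0.07, adjusted p = 5.94e-06). The male change minus the female change was -1.41 ± 0.09 for p53 Y202C (adjusted p = 2.62e-12) and 0.73 ± 0.09 for p53 Y217C (adjusted p = 4.47e-07). The p53 KO libraries of these comparisons were also in the contrast on which the genes were chosen. No such library enters the direct comparisons between mutant lines, in which Wnt5a was 2.13-fold lower in the male p53 Y202C line than in the female one (adjusted p = 3.03e-13) and 2.07-fold higher in the male p53 Y217C line (adjusted p = 1.07e-12). Within a sex it was 1.57-fold higher in male p53 Y217C than in male p53 Y202C, and 2.81-fold lower in female p53 Y217C than in female p53 Y202C. The exons of Wnt5a share 358 bases with the antisense gene Gm2670, and as the strand of counting was not stated, reads there cannot be assigned.

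Genes of fibroblasts and meninges moved with Wnt5a in part. Over the 10 genes of that list the summed level was 44713 to 52073 CPM in female p53 R172H and 36297 to 42602 in female p53 Y202C, the lines highest in Wnt5a, against 9539 to 11354 in male p53 Y202C, 17794 to 18369 in male p53 Y217C, 31796 to 35646 in male p53 R172H, 28228 to 33821 in male p53 KO, 24251 to 26227 in female p53 KO and 25413 to 27423 in female p53 Y217C. Against p53 KO, 9 of the 10 rose and 0 fell in female p53 Y202C, while 2 rose and 6 fell in male p53 Y202C, the directions of Wnt5a in those lines. In p53 Y217C the list went the other way from Wnt5a. In the male line, where Wnt5a rose, 2 rose and 7 fell. In the female line, where Wnt5a fell, 6 rose and 1 fell. Beside these counts and those of astrocyte genes below, 37.6% of all genes rose and 35.4% fell in male p53 Y202C. The shares were 34.9% and 35.6% in male p53 Y217C, 34.3% each in female p53 Y202C, and 28% and 28.7% in female p53 Y217C. Lum was below 1 CPM in every line except female p53 R172H, and Dcn was below 1 CPM in male p53 Y217C. The 10 astrocyte genes in the table summed to line means between 3603 CPM in female p53 Y217C and 5385 CPM in female p53 R172H. In both p53 KO lines, male p53 R172H and female p53 Y217C, 5 of them had a mean below 1 CPM. The sum in those lines therefore came from the other genes, and does not show that all markers were expressed. Of the 10 astrocyte genes, 8 rose and 0 fell in male p53 Y217C against p53 KO, and 4 rose and 6 fell in male p53 Y202C. Against female p53 KO, 3 rose and 1 fell in p53 Y202C, and 1 rose and 4 fell in p53 Y217C. In male p53 Y217C 9 were higher and 0 lower than in female p53 Y217C, where 33.4% of all genes were higher and 34.6% lower. The part of such cell types in the changes of Wnt5a and the other genes was not tested.

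Each member was detected in all lines. The lowest level was that of Wnt5b in male p53 Y217C, where the libraries held no fewer than 76 counts. Per kilobase of exon, the scale on which genes are compared, Fzd2 and Ryk were the most abundant in the p53 KO lines, with 74.8 and 50.6 CPM per kb in males and 71.2 and 48.4 in females. Wnt5a itself was at 4.44 and 3.55 CPM per kb there, and Ror1 at 1.42 and 2.21. Rankings changed between lines: Sfrp1 had 88.5 CPM per kb in female p53 R172H, above Fzd2 at 81.3, and 2.94 in female p53 Y217C, close to Ror1 at 2.86. Ratios of the highest to the lowest line mean were 31.3 for Dkk3, 30.0 for Sfrp1, 7.94 for Wnt5b, 6.96 for Ror1, 5.61 for Fzd1, 3.72 for Ror2, 3.25 for Fzd7, 2.55 for Fzd2 and 1.44 for Ryk. The standard deviation of the 8 line means on the log2 scale was 1.71 for Sfrp1 and 0.16 for Ryk, against a median of 0.34 over all genes.

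**Figure D2:**
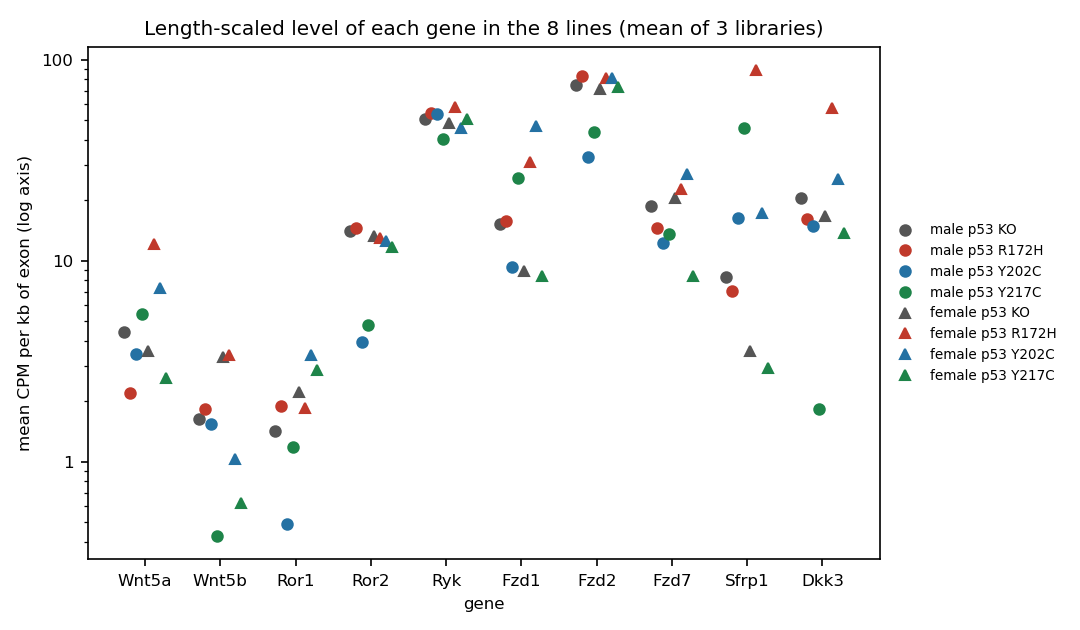
Mean level of each gene in CPM per kilobase of exon (vertical log axis) in the 8 lines (colors for p53 status, circles male, triangles female). Ryk stays between 40.4 and 58.2 CPM per kb, whereas Sfrp1 runs from 2.94 to 88.5 and Dkk3 from 1.83 to 57.5.

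Most of these genes differed from p53 KO in most mutant lines, as did most genes of the table, so the sizes of the changes say more than the counts. In male p53 Y202C, 8 of the 10 passed the threshold (adjusted p of at most 0.05), 1 higher and 7 lower, where 73% of all genes passed, 37.6% higher and 35.4% lower. In male p53 Y217C all 10 passed, 3 higher and 7 lower, against 70.5% of all genes, 34.9% higher and 35.6% lower. In female p53 Y202C 8 passed, 7 higher and 1 lower, against 68.6% of all genes, 34.3% in each direction. In female p53 Y217C 7 passed, 1 higher and 6 lower, against 56.7% of all genes, 28% higher and 28.7% lower. The median size of the log2 fold change, whatever its sign, was 0.65, 0.77, 0.62 and 0.28 over the 10 genes in these comparisons, and 0.46, 0.40, 0.38 and 0.28 over all genes. Signed medians over the 10 were -0.53, -0.40, 0.51 and -0.23, and over all genes between 0.00 and 0.01.

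**Figure D3:**
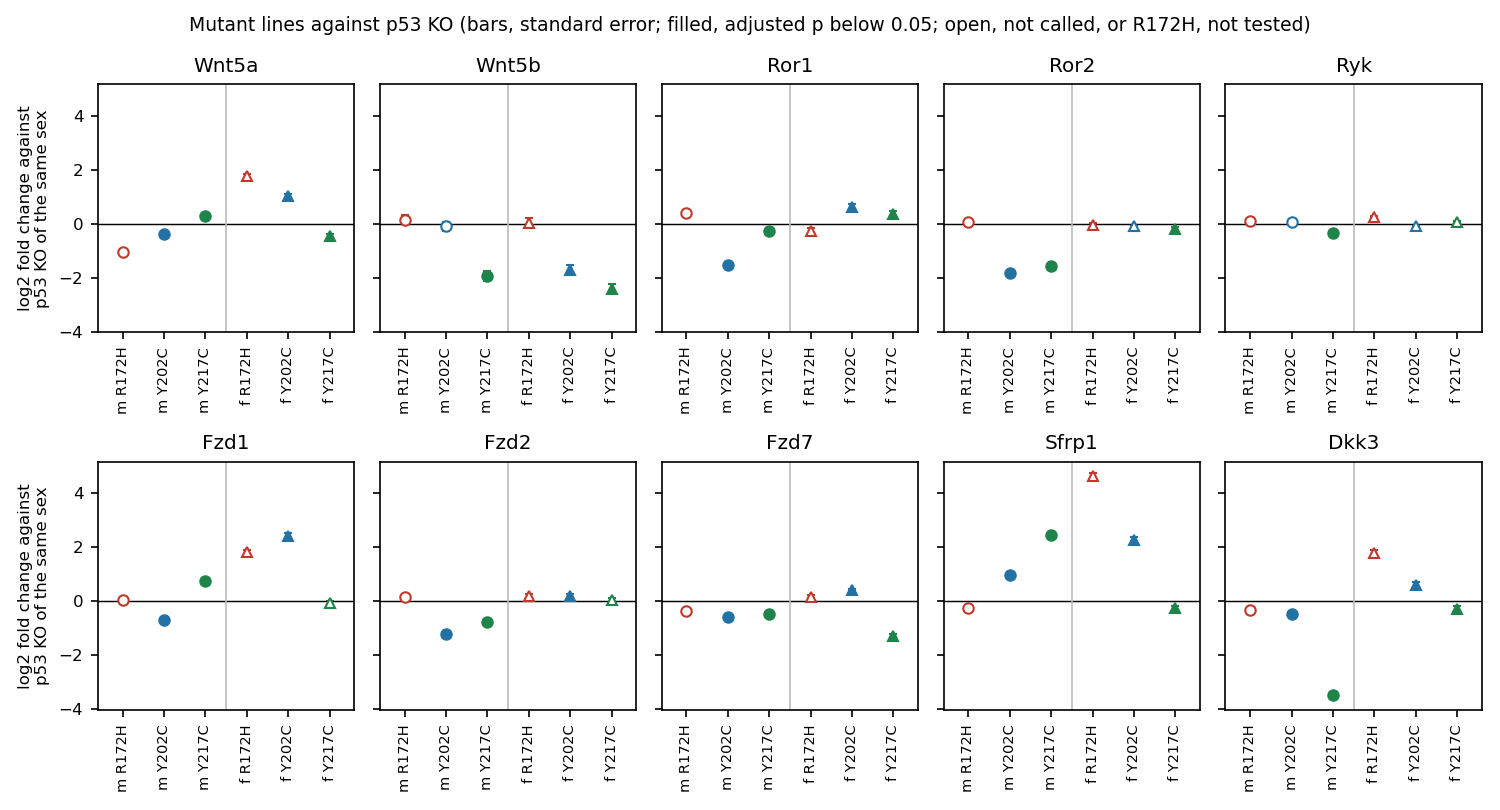
Log2 fold change of each gene in the 6 mutant lines against p53 KO of the same sex (vertical axis; m, male circles; f, female triangles; bars, SE). Filled symbols passed the threshold, and open symbols did not or, for p53 R172H, were not tested. Sfrp1 reaches 4.64 in female p53 R172H and Dkk3 -3.47 in male p53 Y217C, while Ryk stays between -0.32 and 0.27.

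Comparisons between mutant lines, which hold no p53 KO or p53 R172H library, gave larger sizes. They are not independent of the choice, since the genes were chosen with earlier results of these data known. Between male and female p53 Y202C, 9 of the 10 differed, 2 higher and 7 lower in males, where 75.3% of all genes differed, 37.7% in each direction. Between male and female p53 Y217C all 10 differed, 4 higher and 6 lower in males, against 68% of all genes, 33.4% higher and 34.6% lower. Male p53 Y217C differed from male p53 Y202C in all 10, 7 higher and 3 lower, against 73.5% of all genes, 35.6% higher and 38% lower. Female p53 Y217C differed from female p53 Y202C in 8, 1 higher and 7 lower, against 62.6% of all genes, 30.5% higher and 32.1% lower. The median size of the log2 fold change over the 10 genes was 1.12, 1.16, 0.96 and 0.80, against 0.51, 0.39, 0.46 and 0.33 over all genes.

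The change against p53 KO also differed between the male and the female line. For p53 Y202C it differed for all 10 genes, more positive in males for 2 and more negative for 8, against 68% of all genes, 34.5% and 33.5%. For p53 Y217C it differed for 9, 4 more positive and 5 more negative in males, against 54.8% of all genes, 27.5% and 27.4%. The median size of this difference was 1.4 and 0.82 on the log2 scale over the 10 genes, and 0.56 and 0.37 over all genes.

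Wnt5b, a second ligand of the Wnt5 class (chromosome 6, 119432531 to 119544347, minus strand), did not follow Wnt5a. In males it stood at 4.05, 4.28 and 4.67 CPM in p53 KO, 4.17, 4.2 and 3.86 in p53 Y202C, 0.948, 1.20 and 1.26 in p53 Y217C, and 4.52, 4.12 and 5.91 in p53 R172H. In females it stood at 8.67, 9.11 and 8.51 CPM in p53 KO, 2.99, 2.63 and 2.57 in p53 Y202C, 2.40, 1.4 and 1.15 in p53 Y217C, and 9.05, 8.91 and 9.18 in p53 R172H. The female p53 KO and p53 R172H libraries were the highest, and p53 Y217C the lowest of its sex in both cultures. Against p53 KO, Wnt5b fell 3.82-fold in male p53 Y217C (adjusted p = 1.7e-09), 3.22-fold in female p53 Y202C (adjusted p = 6.76e-09) and 5.26-fold in female p53 Y217C (adjusted p = 6.56e-11), and its log2 fold change of -0.09 ± 0.17 in male p53 Y202C was not significant (adjusted p = 0.643). Replicate 1 of female p53 Y217C, at 2.40 CPM, stood above the other 2 libraries of its line. With it Wnt5b was lower in male than in female p53 Y217C (log2 fold change -0.55 ± 0.20, adjusted p = 0.0158), without it the value was -0.17 ± 0.17 (adjusted p = 0.377), and without replicate 1 of male p53 Y217C it was -0.43 ± 0.22 (adjusted p = 0.088). The difference between the male and the female response to p53 Y217C, 0.46 ± 0.25 (adjusted p = 0.13), became 0.84 ± 0.21 (adjusted p = 0.00135) without that female library. With limma this difference was 0.7 ± 0.22 (adjusted p = 0.0084). Of the summed per-length level of both ligands, Wnt5a made up between 51.8% ± 0.605 in female p53 KO and 92.6% ± 1.26 in male p53 Y217C.

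Promoter sequence was at hand for 6 of the 10 genes, as 8 windows of 250 bases before a RefSeq start (GRCm38.p6), and Wnt5b had 3 of them. They were searched for GCCNNNGGC, a palindrome bound by AP-2 factors, and for CTTTGAT on both strands, the core bound by TCF/LEF factors. Each occurred in 1 of the 8 windows, both times at Wnt5b and in different windows, and in 13.7% and 3.21% of 32851 promoter windows of the same length. Those windows are shown because Wnt5b was the only 1 of the 6 genes with either match, with the matched bases in capitals. Counts per gene do not separate the starts, so the level from each is not known.
Wnt5b, chr6:119544348-119544597, minus strand: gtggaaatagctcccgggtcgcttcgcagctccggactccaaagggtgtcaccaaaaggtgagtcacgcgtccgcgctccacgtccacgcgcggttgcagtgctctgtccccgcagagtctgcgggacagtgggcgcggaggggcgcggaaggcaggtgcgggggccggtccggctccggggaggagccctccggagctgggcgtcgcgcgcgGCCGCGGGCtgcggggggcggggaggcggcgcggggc
Wnt5b, chr6:119449387-119449636, minus strand: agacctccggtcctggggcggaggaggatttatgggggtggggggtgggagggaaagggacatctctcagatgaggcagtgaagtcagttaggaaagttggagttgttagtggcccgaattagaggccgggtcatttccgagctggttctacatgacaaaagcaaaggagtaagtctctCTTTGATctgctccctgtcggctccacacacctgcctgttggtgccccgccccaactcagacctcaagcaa
A match is a description of the letters and not evidence of binding.

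Ror2, the receptor tyrosine kinase most closely tied to Wnt5a (chromosome 13, 53109312 to 53286124, minus strand), was low in male p53 Y202C and male p53 Y217C, and between 48.3 and 64.4 CPM in the libraries of the other 6 lines. In males it was at 58.5, 58.2 and 61.1 CPM in p53 KO, 18.5, 16.7 and 14.7 in p53 Y202C, 19.5, 20.9 and 20.5 in p53 Y217C, and 61.7, 59.3 and 64.4 in p53 R172H. In females it was at 57.1, 56.8 and 55.6 CPM in p53 KO, 53.7, 55.4 and 50.5 in p53 Y202C, 48.3, 50.0 and 50.0 in p53 Y217C, and 54.7, 54.3 and 55.8 in p53 R172H. No other line overlapped with male p53 Y202C or male p53 Y217C. Against p53 KO the log2 fold change was -1.83 ± 0.06 in male p53 Y202C (adjusted p = 5.47e-18) and -1.55 ± 0.06 in male p53 Y217C (adjusted p = 8.29e-17). In females it was -0.09 ± 0.06 in p53 Y202C (adjusted p = 0.191) and -0.19 ± 0.06 in p53 Y217C (adjusted p = 0.00705). With limma the female p53 Y202C value was -0.11 ± 0.04 and passed the threshold (adjusted p = 0.0237). The male change minus the female change was -1.74 ± 0.08 for p53 Y202C (adjusted p = 6.64e-15) and -1.35 ± 0.08 for p53 Y217C (adjusted p = 1.13e-12). In the direct comparison of female p53 Y217C with female p53 Y202C the value was -0.11 ± 0.06 (adjusted p = 0.12), and without replicate 3 of female p53 Y202C it was -0.17 ± 0.06 (adjusted p = 0.0238). The window before the Ror2 start, shown because Ror2 was low in male p53 Y202C and male p53 Y217C alone, held neither motif and was 73.2% G and C.
Ror2, chr13:53286125-53286374, minus strand: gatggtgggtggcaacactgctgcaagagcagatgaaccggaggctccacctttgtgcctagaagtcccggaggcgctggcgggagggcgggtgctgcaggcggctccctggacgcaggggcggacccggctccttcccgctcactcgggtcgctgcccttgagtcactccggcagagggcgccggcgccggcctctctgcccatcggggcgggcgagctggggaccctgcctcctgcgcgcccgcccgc

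Ror1, the paralog of Ror2 (chromosome 4, 100095791 to 100444765, plus strand), was the scarcer of the pair in every line, at 9.21% to 21.4% of their summed per-length level. Its mean in males was 2.83 ± 0.544 CPM in p53 Y202C, 6.82 ± 0.324 in p53 Y217C, 8.17 ± 0.765 in p53 KO and 10.9 ± 1.05 in p53 R172H. Among females it was 10.7 ± 0.442 CPM in p53 R172H, 12.8 ± 0.360 in p53 KO, 16.5 ± 1.81 in p53 Y217C and 19.7 ± 0.841 in p53 Y202C. The female p53 R172H libraries overlapped those of male p53 R172H, and all other neighbors in the order of lines were separate. Ror1 fell 2.87-fold in male p53 Y202C (adjusted p = 1.69e-11) and rose 1.54-fold in female p53 Y202C (adjusted p = 9.39e-06), leaving it 6.91-fold lower in the male than in the female p53 Y202C line (adjusted p = 1.43e-16). In female p53 Y217C it rose 1.29-fold (adjusted p = 0.00368). Its small decrease in male p53 Y217C (log2 fold change -0.26 ± 0.11, adjusted p = 0.0345) did not hold without replicate 2 of male p53 Y217C (adjusted p = 0.0985), replicate 1 (0.15) or replicate 3 (0.0668) of male p53 KO, nor with limma (0.0656). The lower value in female p53 Y217C than in female p53 Y202C (-0.26 ± 0.10, adjusted p = 0.0322) likewise did not hold without replicate 1 of female p53 Y217C (adjusted p = 0.186), or without replicate 1 (0.0618) or replicate 3 (0.0628) of female p53 Y202C.

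Ryk, a Wnt receptor with an inactive kinase domain (chromosome 9, 102834917 to 102908305, plus strand), was the steadiest member, with line means from 183 ± 0.0939 CPM in male p53 Y217C to 264 ± 3.93 in female p53 R172H. It fell 1.25-fold in male p53 Y217C (adjusted p = 1.74e-07). In male p53 Y202C the log2 fold change was 0.08 ± 0.04 (adjusted p = 0.0701), which passed the threshold without replicate 1 (adjusted p = 0.0485) or replicate 2 (0.0245) of that line. In female p53 Y202C and p53 Y217C the values were -0.09 ± 0.04 (adjusted p = 0.0657) and 0.06 ± 0.04 (adjusted p = 0.2). With limma both passed the threshold (adjusted p = 0.0136 and 0.0327), and with DESeq2 the p53 Y202C value did (0.0348). The male and the female change to p53 Y202C differed by 0.17 ± 0.06 (adjusted p = 0.0124), which was no longer significant without replicate 3 of female (adjusted p = 0.095) or of male p53 Y202C (0.0501).

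The 3 frizzled genes did not move as a unit. Fzd1 (chromosome 5, 4753839 to 4758035, minus strand) stood in males at 57.7, 66.1 and 68.8 CPM in p53 KO, 41.2, 42.1 and 34.4 in p53 Y202C, 114, 103 and 108 in p53 Y217C, and 56.2, 72.4 and 70.7 in p53 R172H. In females it stood at 33.3, 38.5 and 39.7 CPM in p53 KO, 179, 211 and 201 in p53 Y202C, 37.1, 34.9 and 33.4 in p53 Y217C, and 139, 121 and 130 in p53 R172H. Every library of female p53 Y202C was above every library of the other lines, and female p53 KO, female p53 Y217C and male p53 Y202C overlapped at the bottom. Fzd1 rose 5.30-fold in female p53 Y202C (adjusted p = 4.57e-16) and 1.69-fold in male p53 Y217C (adjusted p = 1.4e-07), fell 1.64-fold in male p53 Y202C (adjusted p = 3.96e-07), and had a log2 fold change of -0.08 ± 0.10 in female p53 Y217C (adjusted p = 0.49). The difference of -3.12 ± 0.14 between the male and the female change to p53 Y202C (adjusted p = 1.04e-15) was the largest of the 10 genes for that mutation. In female p53 R172H, given as a description, Fzd1 was 3.5-fold above p53 KO, and in male p53 R172H 1.03-fold.

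Fzd2 (chromosome 11, 102604396 to 102608058, plus strand) made up 52.1% to 81.4% of the summed per-length level of the 3 frizzleds. It was lowest in the same male lines as Ror2, with a mean of 119 ± 14.1 CPM in male p53 Y202C and 160 ± 3.78 in male p53 Y217C, where the other 6 lines had means of 261 to 304. Against p53 KO it fell 2.29-fold in male p53 Y202C (adjusted p = 4.32e-12) and 1.71-fold in male p53 Y217C (adjusted p = 1.03e-08), and it had a log2 fold change of 0.04 ± 0.08 in female p53 Y217C (adjusted p = 0.699). The rise in female p53 Y202C (0.18 ± 0.08, adjusted p = 0.0488) rested on replicate 2, at 343 CPM against 278 and 268: without it the value was 0.06 ± 0.07 (adjusted p = 0.453). It was also lost without replicate 1 (adjusted p = 0.0858), 2 (0.116) or 3 (0.0721) of female p53 KO, with the replicate number as a block (0.0616) and with limma (0.145). Between female p53 Y217C and female p53 Y202C the value was -0.14 ± 0.08 (adjusted p = 0.127), and -0.24 ± 0.08 (adjusted p = 0.0171) without replicate 3 of female p53 Y202C.

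Fzd7 (chromosome 1, 59482424 to 59486955, plus strand) was highest in female p53 Y202C, at 123 ± 3.21 CPM, and lowest in female p53 Y217C, at 37.9 ± 0.794. Against p53 KO it fell in male p53 Y202C (1.52-fold, adjusted p = 1.58e-10), male p53 Y217C (1.38-fold, adjusted p = 1.54e-08) and female p53 Y217C (2.44-fold, adjusted p = 1.1e-15), and rose in female p53 Y202C (1.33-fold, adjusted p = 1.16e-07). The female p53 Y217C line was 3.25-fold below female p53 Y202C (adjusted p = 2e-18). Male p53 Y217C was 1.10-fold above male p53 Y202C (adjusted p = 0.0209), which did not hold without replicate 3 of male p53 Y202C (adjusted p = 0.103).

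Sfrp1, the secreted frizzled-related decoy (chromosome 8, 23411502 to 23449632, plus strand), had the largest standard deviation of line means among the 10 genes. Male libraries held 32.2, 38.7 and 38.2 CPM in p53 KO, 69.9, 67.7 and 76.3 in p53 Y202C, 207, 182 and 210 in p53 Y217C, and 27.4, 31.9 and 33.0 in p53 R172H. Female libraries held 14.1, 17.6 and 15.1 CPM in p53 KO, 73.3, 71.0 and 81.0 in p53 Y202C, 12.2, 13.9 and 12.4 in p53 Y217C, and 412, 402 and 346 in p53 R172H. Female p53 R172H was above all other lines, male p53 Y217C was next, and female p53 Y217C was below all others. Sfrp1 rose in male p53 Y202C (1.96-fold, adjusted p = 1.11e-09), male p53 Y217C (5.49-fold, adjusted p = 5.71e-17) and female p53 Y202C (4.83-fold, adjusted p = 9.43e-16). The male and female p53 Y202C libraries overlapped (log2 fold change -0.08 ± 0.09, adjusted p = 0.45), where p53 KO stood at 36.4 ± 3.59 CPM in males and 15.6 ± 1.80 in females. For p53 Y217C the male line was 15.5-fold above the female line (adjusted p = 2.22e-20), and the male and female changes differed by 2.73 ± 0.13 (adjusted p = 1.63e-14). The small decrease in female p53 Y217C (-0.27 ± 0.10, adjusted p = 0.0204) did not hold without replicate 1 (adjusted p = 0.0809) or 3 (0.062) of that line or replicate 2 of female p53 KO (0.145). In female p53 R172H Sfrp1 was 24.9-fold above p53 KO, as a description, and in male p53 R172H 1.18-fold below it.

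Dkk3 (chromosome 7, 112116017 to 112159057, minus strand) had its extremes in other lines than Sfrp1 at the low end. Male libraries held 58.9, 70.8 and 75.9 CPM in p53 KO, 47.7, 50.2 and 51.2 in p53 Y202C, 6.84, 5.76 and 5.89 in p53 Y217C, and 45.6, 59.7 and 57.9 in p53 R172H. Female libraries held 49.0, 61.1 and 58.6 CPM in p53 KO, 80.8, 91.6 and 85.1 in p53 Y202C, 53.6, 43.0 and 41.7 in p53 Y217C, and 206, 186 and 189 in p53 R172H. Male p53 Y217C was apart from every other line, while male p53 R172H overlapped with both male p53 KO and male p53 Y202C. In male p53 Y217C, where Sfrp1 and 8 of the 10 astrocyte markers rose, Dkk3 fell 11.1-fold (adjusted p = 1.34e-17), and in male p53 Y202C it fell 1.38-fold (adjusted p = 0.000431). It rose 1.53-fold in female p53 Y202C (adjusted p = 2.19e-05). The male and the female change to p53 Y217C differed by -3.19 ± 0.16 (adjusted p = 2.68e-14). The decrease in female p53 Y217C (-0.28 ± 0.11, adjusted p = 0.027), with overlapping libraries, did not hold without replicate 2 (adjusted p = 0.107) or 3 (0.126) of that line, or replicate 2 (0.125) or 3 (0.0845) of female p53 KO.

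**Figure D4:**
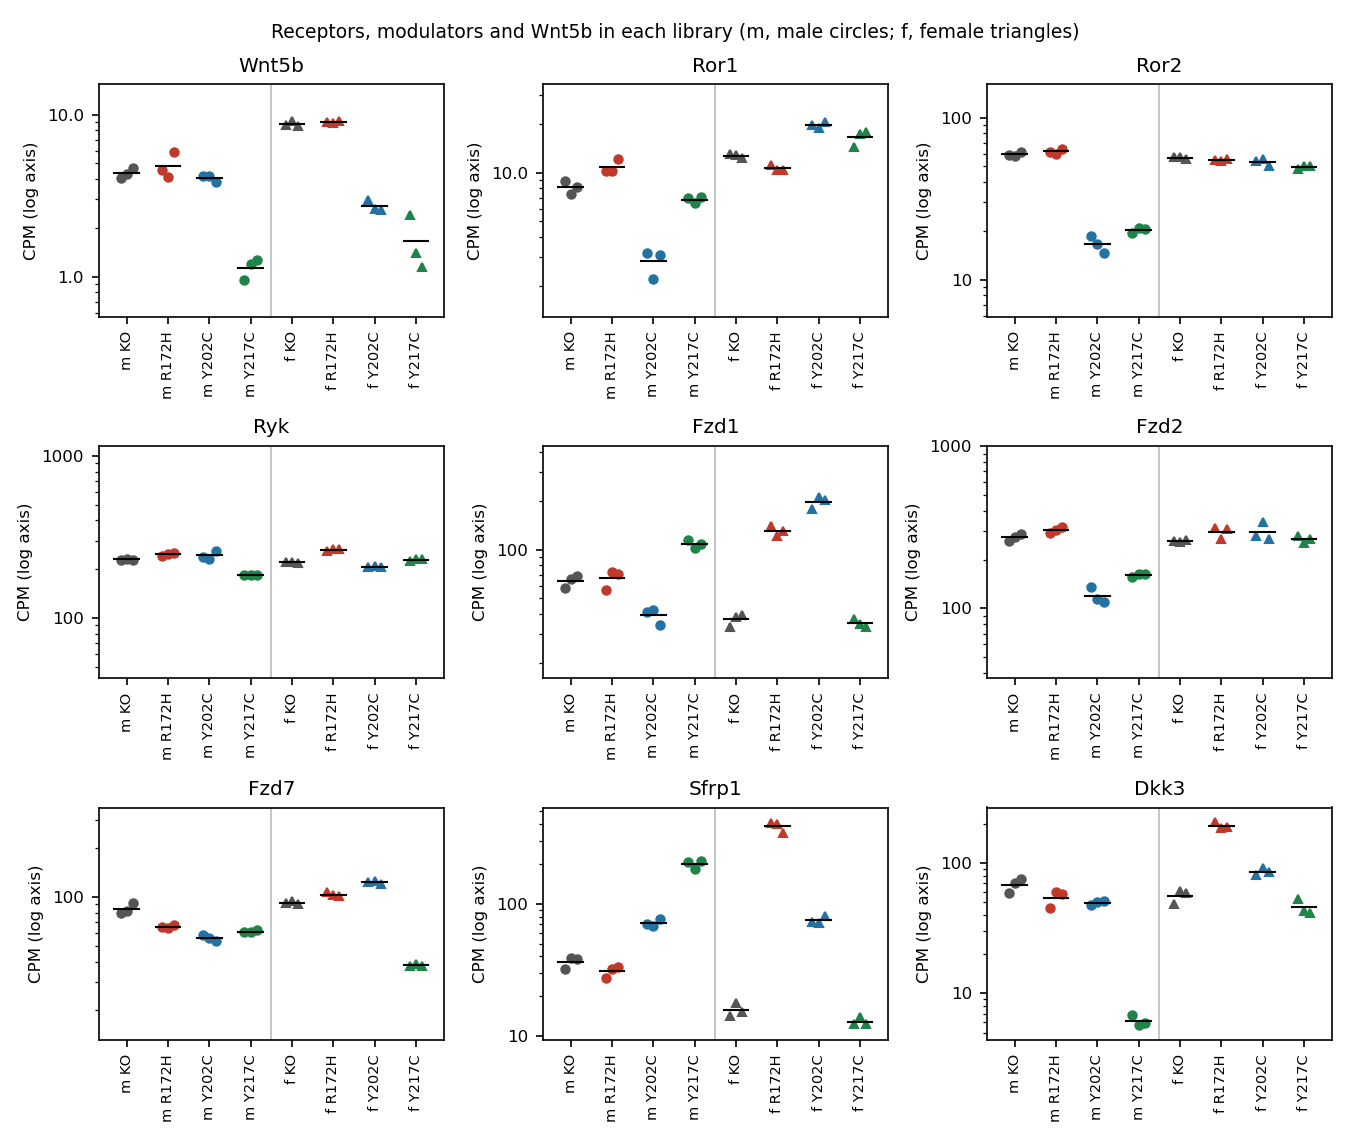
CPM (vertical log axes) of the 9 genes other than Wnt5a in each library of the 8 lines (horizontal axis; m, male circles; f, female triangles), with a black line at the mean of 3. Ror2 and Fzd2 are low in male p53 Y202C and p53 Y217C alone, Sfrp1 and Dkk3 are highest in female p53 R172H, and Dkk3 is lowest in male p53 Y217C at 5.76 to 6.84 CPM.

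Over the 8 line means of log2 CPM, Pearson's r with Wnt5a was 0.81 for Sfrp1, 0.77 for Fzd1, 0.68 for Fzd7 and 0.31 for Dkk3, and between -0.02 and 0.19 for Wnt5b, Ror1, Ror2, Fzd2 and Ryk. Without female p53 R172H and female p53 Y202C, the lines highest in Wnt5a, it was 0.66 for Sfrp1, 0.51 for Fzd1, 0.37 for Fzd7 and -0.59 for Dkk3 over 6 lines. Over the same 6 lines it was -0.27 for Wnt5b, -0.38 for Ror1, -0.46 for both Ror2 and Fzd2, and -0.76 for Ryk. These values describe 8 lines that come from only 2 source cultures, and carry no p. Among 1445 genes with a mean of at least 1 CPM and a standard deviation of the line means of at least 1 on the log2 scale, the 5 most like Wnt5a were Ebf1, a transcription factor (r = 0.973), Plpp3, a lipid phosphatase (0.966), the interferon-inducible genes Cmpk2 (0.941) and Mndal (0.937), and AW551984 (0.936). All 5 had their highest mean in female p53 R172H, a line on which Wnt5a was chosen. There Ebf1 was at 104 CPM and Plpp3 at 597, against 15.5 and 22.7 in female p53 KO. The other 3 were near the floor outside female p53 R172H and female p53 Y202C. Their line means there were 0.154 to 1.05 CPM for Cmpk2, 0.23 to 0.958 for Mndal and 0.00492 to 0.168 for AW551984. For these genes r was not computed without those lines. Cmpk2, Mndal and AW551984 would not have reached the mean of 1 CPM without female p53 R172H. Their place in this ranking therefore rests on a line used in the choice of Wnt5a. The 5 most opposite were Cftr, a chloride channel (-0.937), Dgkk, a diacylglycerol kinase (-0.924), Pbp2 (-0.923), Rbfox1, a splicing factor (-0.917), and Coro6 (-0.908). These 5 all had their lowest mean in female p53 R172H. Cftr was near the floor in every line, with means of 0.182 to 1.8 CPM.

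Beyond the 10 genes, 92 of 115 further genes on 8 lists were in the table. The lists were of Wnt pathway genes, except that of the AP-2 transcription factors, of which Tfap2a and Tfap2b were among the 92. The 115 held the same gene as both Wisp1 and Ccn4. Of the 92, 69 passed in male p53 Y202C against p53 KO (26 higher, 43 lower), 75 in male p53 Y217C (33 and 42), 72 in female p53 Y202C (35 and 37) and 56 in female p53 Y217C (18 and 38). These were 75.0%, 81.5%, 78.3% and 60.9% of the 92, beside 73%, 70.5%, 68.6% and 56.7% of all genes, which were split about evenly between the directions and are also the shares beside which the counts of each list below stand. Their median log2 fold changes, -0.14, -0.08, -0.08 and -0.11, lay beside 0.01, 0.00, 0.00 and 0.00 over all genes. Between male and female lines 80 differed for p53 Y202C (34 higher in males, 46 lower) and 79 for p53 Y217C (38 and 41), which is 87.0% and 85.9% of the 92 beside 75.3% and 68% of all genes.

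Per kilobase of exon, the 11 other ligands in the table had lower line means than Wnt5a in 6 of the 8 lines. In female p53 Y202C Wnt2 was at 8.99 CPM per kb and Wnt5a at 7.35, and in female p53 R172H Wnt10a was at 21.3 and Wnt5a at 12.1. Of the 11, 4 rose and 4 fell in female p53 Y202C, 0 rose and 6 fell in female p53 Y217C, 2 rose and 7 fell in male p53 Y202C, and 1 rose and 6 fell in male p53 Y217C. Wnt2, a canonical ligand, was at 20.3 ± 1.15 CPM in female p53 Y202C against 2.72 ± 0.171 in female p53 KO (adjusted p = 4.82e-15) and 0.224 ± 0.0221 in male p53 Y202C. Wnt10a went from 0.213 to 5.93 CPM in female p53 Y202C (adjusted p = 2.07e-14). In the same line Wnt10b fell from 7.92 to 1.25 CPM (adjusted p = 1.97e-14).

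Among 11 other receptors and co-receptors, Ptk7, a pseudokinase of the planar polarity branch, fell like Ror2 in male p53 Y202C and male p53 Y217C. Its log2 fold change against p53 KO was -1.06 ± 0.06 in male p53 Y202C (adjusted p = 2.22e-13) and -0.82 ± 0.06 in male p53 Y217C (adjusted p = 2.64e-11), and -0.08 ± 0.06 (adjusted p = 0.26) and -0.04 ± 0.06 (adjusted p = 0.598) in the female lines. Mcam, another receptor of Wnt5a, fell in male p53 Y202C, from 122 to 43.5 CPM (adjusted p = 6.77e-14). Fzd4 rose in both male lines, from 5.14 CPM in p53 KO to 15.9 in p53 Y202C (adjusted p = 4.15e-14) and 19.8 in p53 Y217C (adjusted p = 1.58e-15). In this list 1 gene rose and 7 fell in male p53 Y202C, 7 rose and 3 fell in male p53 Y217C, 4 rose and 5 fell in female p53 Y202C, and 3 rose and 3 fell in female p53 Y217C. The 8, 10, 9 and 6 genes called were 72.7%, 90.9%, 81.8% and 54.5% of the 11, beside the 73%, 70.5%, 68.6% and 56.7% of all genes. All 11 were higher in male p53 Y217C than in male p53 Y202C, with a median log2 fold change of 0.99 against -0.01 over all genes, of which 35.6% were higher.

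Other secreted modulators also changed by large factors. Of 11, 3 rose and 5 fell in male p53 Y202C, 3 and 5 in male p53 Y217C, 5 and 4 in female p53 Y202C, and 1 and 6 in female p53 Y217C. Sfrp4 was at 37.3 ± 1.78 CPM in male p53 Y217C against 1.76 ± 0.216 in male p53 KO (adjusted p = 6.65e-18), with no more than 1.76 as a mean in any other line. Dkk2 fell from 85.3 to 8.23 CPM in male p53 Y217C (adjusted p = 3.95e-22) and from 117 to 8.65 CPM in female p53 Y202C (adjusted p = 1.56e-22). Sfrp2 was 0.801 ± 0.237 CPM in male p53 Y202C against 18.8 ± 2.95 in male p53 KO (adjusted p = 6.48e-13), and 108 ± 6.70 in female p53 Y202C. Among 8 genes for Wnt secretion and receptor turnover, Porcn, the acyltransferase that Wnt secretion needs, rose from 5.67 to 19.7 CPM in male p53 Y202C (adjusted p = 1.34e-11) and from 6.31 to 20.9 in female p53 Y202C (adjusted p = 4.94e-11). Lgr6, a receptor for R-spondins, was at 94.5 ± 2.98 CPM in male p53 Y217C against 1.61 ± 0.125 in male p53 KO (adjusted p = 5.7e-18). That list had 2 higher and 4 lower in male p53 Y202C, 3 and 5 in male p53 Y217C, 4 and 2 in female p53 Y202C, and 2 and 2 in female p53 Y217C.

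Downstream, 17 core genes of the beta-catenin branch had medians near 0. Against p53 KO, the medians of 24 mediators of the non-canonical and planar polarity branch were below 0 in each of these lines, and lowest in female p53 Y217C at -0.22. Between female p53 Y217C and female p53 Y202C their median was 0.18. The 24 had 7 higher and 10 lower in male p53 Y202C, 9 and 12 in male p53 Y217C, 8 and 12 in female p53 Y202C, and 4 and 13 in female p53 Y217C, with medians between -0.22 and -0.06. Nfatc4, a calcium-responsive transcription factor, fell in male p53 Y217C, from 56.9 to 13.6 CPM (adjusted p = 1.16e-15), and Celsr1, a planar polarity cadherin, rose there from 1.97 to 14.8 CPM (adjusted p = 8.02e-13). The 17 core genes had 5 higher and 7 lower, 7 and 7, 7 and 4, and 6 and 4 in the same order of lines, with medians between -0.03 and 0.06. Of 13 beta-catenin target genes, 7 rose and 4 fell, 6 and 4, 7 and 6, and 4 and 3. Axin2, the most general of these targets, rose in male p53 Y217C, from 1.56 to 9.41 CPM (adjusted p = 6.3e-13), and in female p53 Y202C, from 1.21 to 10.8 CPM (adjusted p = 6.03e-14). It fell in male p53 Y202C (log2 fold change -0.52 ± 0.17, adjusted p = 0.0099) and was at -0.12 ± 0.18 (adjusted p = 0.57) in female p53 Y217C.

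Of 5 AP-2 transcription factor genes, Tfap2a and Tfap2b were in the table. Tfap2c, which encodes AP-2gamma, was not, nor were Tfap2d and Tfap2e. Tfap2b was at 10.3, 11.1 and 10.6 CPM in male p53 KO and 22.9, 22.6 and 25.1 in female p53 KO. Female p53 R172H libraries held 247, 253 and 231 CPM, and male p53 R172H libraries 2.10, 1.69 and 1.63, the same directions as Wnt5a in these lines, on which the genes were chosen. No more than 3 counts of Tfap2b were found in any library of male p53 Y202C or male p53 Y217C, and 0 in the 3 libraries of female p53 Y217C, where a count of 0 allows up to 3. Female p53 Y202C, in which Wnt5a rose, had 17.2, 12.2 and 16.2 CPM of Tfap2b, below female p53 KO (log2 fold change -0.63 ± 0.10, adjusted p = 1.52e-05). Male p53 Y217C, in which Wnt5a also rose, was a line with next to no Tfap2b. The part of AP-2 factors in the changes of Wnt5a was not tested. Tfap2a had line means of 1.41 to 5.50 CPM except in female p53 Y217C, where its 3 libraries held 0, 0.0127 and 0.0739.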

How the data were processed

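RNA was isolated from 24 cultures of 8 mouse astrocyte lines, and polyA libraries were sequenced. The authors aligned the reads with STAR 2.5.1a to the Ensembl release 76 primary assembly, assigned reads that aligned uniquely and without ambiguity to genes with featureCounts, and deposited raw counts for 14427 genes without normalization. The strand of counting is not given in the sources used here. The table held no samples outside the series, and GENCODE M21 gave symbols for 14350 of its Ensembl identifiers.

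Counts were normalized by TMM and analyzed with edgeR 4.0.16 (R 4.3.3). A minimum of 1 CPM in 2 libraries removed no gene, since every gene of the table exceeded 1 CPM in at least 3 libraries. The fit took in all 24 libraries, with a separate mean for each line. 10 contrasts were tested with the quasi-likelihood test, with Benjamini-Hochberg adjustment over all genes and a threshold of 0.05, and standard errors were derived from the fold change and its F statistic. Comparisons of p53 R172H with p53 KO and of the sexes within either were not tested, since the genes were chosen on them. The genes and pathway lists were chosen with earlier results of these data known. Levels are TMM-normalized CPM, and levels per kilobase used the union of GENCODE M21 exons. All 10 members, the 5 genes most and 5 least like Wnt5a, and from each further Wnt list the largest rise and fall among genes that had 10 or more counts in each library of the line where they were higher, were eligible to be named. The chi-square of counts between replicates, per gene, was between 6.84 and 59.22, more than counting noise alone, and each library was counted as 1 sample. Scripts were tested on simulated data. Library totals of 52787288 to 136503809 counts set the precision of low genes such as Wnt5b. Alternatives were limma voom with quality weights 3.58.1, DESeq2 1.42.0, median-ratio size factors, no filter, a filter of 5 CPM in 3 libraries, a fit to the lines compared alone, a block for the replicate number, and each replicate left out. Promoters were RefSeq entries for GRCm38.p6. Since replicates are platings of 1 line, p-values measure only the spread between these platings.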

Additional observations from a re-analysis of the deposited data

Results flagged for a closer look

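The change against p53 KO differed between the male and the female line for all 10 genes with p53 Y202C, by edgeR's quasi-likelihood test of the difference adjusted over all genes. The male minus the female log2 fold change was -1.41 for Wnt5a (adjusted p = 2.62e-12), -2.14 for Ror1 (9.89e-12), -1.74 for Ror2 (6.64e-15), -3.12 for Fzd1 (1.04e-15), -1.38 for Fzd2 (1.98e-10), -1.02 for Fzd7 (7.65e-12), -1.30 for Sfrp1 (4.27e-09) and -1.08 for Dkk3 (9.84e-07). It was positive for Wnt5b, at 1.60 (2.27e-06), and for Ryk, at 0.17 (0.0124).

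For p53 Y217C the same difference passed for 9 genes. It was 0.73 for Wnt5a (adjusted p = 4.47e-07), 0.84 for Fzd1 (1.03e-05), 0.82 for Fzd7 (7.28e-10) and 2.73 for Sfrp1 (1.63e-14). It was -0.62 for Ror1 (0.00088), -1.35 for Ror2 (1.13e-12), -0.82 for Fzd2 (1.84e-06), -0.39 for Ryk (3.92e-06) and -3.19 for Dkk3 (2.68e-14). Wnt5a, Fzd1, Fzd7 and Sfrp1 were thus negative for p53 Y202C and positive for p53 Y217C, and Ryk the reverse. The Ryk value for p53 Y202C did not hold with a filter of 5 CPM in 3 libraries (adjusted p = 0.0965). Nor did it hold in a fit to the lines compared alone (adjusted p = 0.0639). Ror1, Ror2, Fzd2 and Dkk3 were negative for both mutations. These differences are between 1 male and 1 female line of each kind, and sex cannot be told apart from line.

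In the p53 R172H lines, on which the genes were chosen, every male library lay on 1 side of its p53 KO libraries and every female library on the other for Wnt5a (male minus female log2 fold change -2.79), Ror1 (0.68) and Fzd7 (-0.54). For these 3 the difference was not tested.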

How the results depend on the processing

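Over the 10 genes in 10 tested comparisons, 1379 of 1420 values from other settings kept their direction and their side of the threshold, 31 lost the call, 10 gained it and 0 reversed. The number of the 10 genes called stayed within 1.5 times of the reported number in every comparison and setting, with a range of 5 to 7 when 1 library was left out for female p53 Y217C against p53 KO and of 7 to 8 for female p53 Y202C. Wnt5a kept its direction in both p53 R172H lines, with log2 fold changes of -1.06 to -0.98 in males and 1.71 to 1.81 in females when 1 library was left out. Median-ratio size factors moved the median of all genes by at most 0.023 on the log2 scale. Replicate numbers did not pair libraries across lines: the mean correlation of deviations was -0.012 over 84 pairs with the same number and 0.006 over 168 with different numbers, and the replicate block left 7 of the 10 genes called in female p53 Y202C against p53 KO, 8 without it, and changed the number in no other comparison. Ranked by Spearman's rho instead of Pearson's r, 4 of the 10 genes named as most or least like Wnt5a remained. The values that lost or gained a call belonged to Wnt5b, Ror1, Ror2, Ryk, Fzd2, Fzd7, Sfrp1 and Dkk3, and none to Wnt5a or Fzd1; the cause was not tested.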

Other observations

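In the p53 R172H lines some further Wnt genes stood far from p53 KO and others did not. Values are given here without a test, as the genes of the report were chosen on these lines. Sfrp2, a secreted frizzled-related protein like Sfrp1, was at 1301 to 1830 CPM in female p53 R172H against 114 to 213 in female p53 KO, and at 10.3 to 17.1 in male p53 R172H against 16.2 to 22.0 in male p53 KO. Dkk2, a Dickkopf protein that acts on LRP co-receptors, was lower in both, at 39.3 to 41.4 CPM against 111 to 123 in females and 39.3 to 44.1 against 82.9 to 88.6 in males. Axin2, a general target of beta-catenin, was at 1.20 to 1.56 CPM in female p53 R172H against 1.05 to 1.51 in female p53 KO, with overlapping libraries. Outside the Wnt genes, Slc1a3, the glutamate transporter of astrocytes and radial glia, was at 271 to 287 CPM in female p53 R172H. It was at 15.1 to 20.9 CPM in female p53 KO. Of the 10 astrocyte markers, 4 had a mean below 1 CPM in female p53 R172H, namely Gfap, Aqp4, Slc1a2 and S100b.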
